A study of Mus musculus with 2 samples.

Results

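The genes described here are 8 that mark regulatory T cells or carry out suppression by them: Foxp3, Ikzf2, Maf, Izumo1r, Lrrc32, Il10, Tgfb1 and Areg. They were chosen by name out of 27998 genes in the deposited count matrices, and all 8 had unique molecular identifier (UMI) counts in both libraries. The question was how high each one stood in T cells with a Foxp3 transcript, against other T cells, NK cells and myeloid cells, in each library, and which other cells carried Il10, Areg and Tgfb1 transcripts.

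Tumours of MC38, a colon carcinoma line of the mouse, were dissociated, and their viable CD45+ (immune) cells were sorted and profiled as droplet single-cell RNA libraries read from the 3' end. The hosts were C57BL/6J mice (strain tag C57BL/6) with intradermal tumours at 4 sites each. After 7 days the tumours received a control injection or, for 3 days, anti-PD-1 antibody (200 µg per mouse, daily), and were taken on day 10. The control agent, the animals' age and the number of animals pooled are not stated in the labels. There was 1 library per group, so no test between conditions exists, no p-value is given, and the 95% intervals cover counting error alone and neither animal nor cell variation.

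Regulatory T cells are CD4 T cells that restrain other immune cells. FOXP3 is the transcription factor that specifies them, Helios (Ikzf2) is a zinc-finger factor carried by many of them, and c-MAF (Maf) is a factor that promotes Il10 transcription in several T-cell types. GARP (Lrrc32) holds latent TGF-β1 at the cell surface, and the folate receptor-like protein FR4 (Izumo1r) is a surface marker of the lineage. IL-10 and TGF-β1 (Tgfb1) are suppressive cytokines, and amphiregulin (Areg), a ligand of the EGF receptor, is known for its part in tissue repair by regulatory T cells.

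Summed UMIs were 5203415 (control) and 13717817 (anti-PD-1). Barcodes with at least 1000 UMIs and at most 10% mitochondrial UMIs were kept, which gave 1174 control cells (median 3287 UMIs) and 3321 anti-PD-1 cells (median 2763), with 4 barcodes shared by the libraries. Ptprc, the gene of CD45, was detected in 78.0% of kept control and 75.5% of kept anti-PD-1 cells. Cells were sorted into gates by marker transcripts. A T cell needed at least 2 UMIs of the CD3 genes and at most 4 of 7 myeloid genes. Foxp3-positive T cells had at least 1 Foxp3 UMI and none of Cd8a or Cd8b1. The CD4 gate held T cells with Cd4, no Foxp3 and no Cd8 UMI, the CD8 gate those with Cd8 and neither Cd4 nor Foxp3, and the double-negative gate those with none of these transcripts. A gate's level of a gene is its count per 1000000 UMIs of that gate (CPM).

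In all, 4 of the 8 genes had a promoter window in the RefSeq table for GRCm38.p6, and these 250-base stretches before the transcription start are shown because most UMIs of Foxp3, Izumo1r and Areg lay in T cells, whereas Tgfb1 was spread over nearly every gate. Capitals mark matches to any of 8 motifs searched on both strands. The motifs were AP-1 TGANTCA, CRE TGACGTCA, MAF half-site TGCTGAC, RUNX TGTGGT, forkhead TGTTTAC, STAT TTCNNNGAA, NFAT GGAAAA and TATA box TATAAA. The Foxp3 window, 1 of a pair given for this gene, is chrX:7579426-7579675 (+), the Areg window chr5:91139349-91139598 (+), the Izumo1r window chr9:14903768-14904017 (-) and the Tgfb1 window chr7:25686752-25687001 (+). The starts are those of RefSeq. Both Foxp3 windows and part of the Izumo1r window lie inside the gene positions given below, which come from another annotation.
Foxp3: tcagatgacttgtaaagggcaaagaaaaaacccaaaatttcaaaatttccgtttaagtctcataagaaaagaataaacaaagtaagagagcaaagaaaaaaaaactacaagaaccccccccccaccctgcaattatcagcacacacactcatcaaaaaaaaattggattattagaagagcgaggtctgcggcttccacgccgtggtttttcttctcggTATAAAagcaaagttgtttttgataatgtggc
Areg: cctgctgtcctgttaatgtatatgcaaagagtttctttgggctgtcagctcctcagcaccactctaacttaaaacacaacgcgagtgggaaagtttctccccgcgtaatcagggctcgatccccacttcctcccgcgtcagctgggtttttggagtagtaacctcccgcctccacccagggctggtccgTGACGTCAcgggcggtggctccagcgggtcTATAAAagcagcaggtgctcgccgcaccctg
Izumo1r: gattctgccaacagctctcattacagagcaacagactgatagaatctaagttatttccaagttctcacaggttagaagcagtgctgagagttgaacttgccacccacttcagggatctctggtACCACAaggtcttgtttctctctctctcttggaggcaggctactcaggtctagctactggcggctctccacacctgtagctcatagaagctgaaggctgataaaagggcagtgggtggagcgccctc
Tgfb1: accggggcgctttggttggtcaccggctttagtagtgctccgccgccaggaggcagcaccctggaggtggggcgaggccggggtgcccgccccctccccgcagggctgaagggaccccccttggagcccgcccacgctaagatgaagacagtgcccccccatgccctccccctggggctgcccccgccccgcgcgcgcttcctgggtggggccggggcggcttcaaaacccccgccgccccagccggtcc

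The Areg window held a full CRE (TGACGTCA, the site bound by CREB-family factors) starting at -61 from the transcription start and a TATA box at -31. Of 32851 promoter windows of the same length, 1.55% held a CRE and 12.4% a TATA box. The Foxp3 window shown held a TATA box at -32, and the other Foxp3 window held an NFAT match at -141 and an overlapping STAT match at -139. Of all windows, 20.4% held an NFAT and 7.02% a STAT match. The Izumo1r window held a RUNX match at -127, read as ACCACA on the gene's strand, and 14.0% of windows held this motif. The Tgfb1 window matched none of the 8 motifs, and its GC content was 75.2% against 57.2% in Areg, 50% in Izumo1r, 37.6% in the Foxp3 window and a median of 52.4% over all windows. A match is a description of letters and was not tested as a site.

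Foxp3 (protein coding, GRCm38 chrX:7573644-7595245, plus strand) was found almost only in T cells. In the control library 90 cells had a Foxp3 UMI. Of these, 79 lay in the Foxp3-positive gate, 6 in T cells that also had a Cd8 UMI and 5 in no gate. In the anti-PD-1 library the counts were 194 cells in all, 158 in the gate, 24 in T cells with a Cd8 UMI and 12 in no gate. No NK or myeloid cell carried a Foxp3 UMI in either library, and the 3 UMIs that a count of 0 allows are 3.14 CPM in control NK cells and 0.73 CPM in anti-PD-1 myeloid cells.

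The Foxp3-positive gate made up 6.73% of kept control cells (5.36 to 8.32) and 4.76% of kept anti-PD-1 cells (4.06 to 5.54). Among T cells it was 23.0% of 344 in the control library and 9.54% of 1657 after anti-PD-1, in which the CD8 gate held 1038 cells against 71. The transcript was sparse within the gate: 46 of 79 control cells and 106 of 158 anti-PD-1 cells had a single Foxp3 UMI. Foxp3 itself stood at 485 CPM (control) and 565 CPM (anti-PD-1), values that describe the gate because Foxp3 chose it. The gene overlaps Ppp1r3f, Gm36995, Flicr and Ccdc22 in the annotation, and whether the authors' counting used strand is not stated in the labels.

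The Foxp3-positive gate carried other regulatory T-cell transcripts, and 75 of 79 control cells and 142 of 158 anti-PD-1 cells had a UMI of Il2ra or Ctla4. Of 30 further regulatory T-cell genes on a fixed list, 19 had enough UMIs for comparison with CD8 T cells in the control library, and 16 of these were at least 2-fold higher in the Foxp3-positive gate. Of the 22 in the anti-PD-1 library, 18 were. The list was not compared with CD4 T cells. A gene entered such a comparison with at least 20 UMIs in the side where it was higher, and over all genes that did so 17.6% (control) and 7.58% (anti-PD-1) were at least 2-fold higher in the Foxp3-positive gate. Tnfrsf4, which encodes the costimulatory receptor OX40, stood at 3151 CPM against 141 CPM in control CD8 T cells and at 2818 CPM against 62.0 CPM in the anti-PD-1 library. Klrg1, an inhibitory receptor of differentiated lymphocytes, stood at 383 CPM against 7.21 CPM in the control.

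Markers of other cell types were low in the gate. The 7 myeloid genes that set the gate summed to 412 CPM in the control library (6 of 7 detected, Csf1r at 0) and 446 CPM after anti-PD-1 (7 of 7), with at most 4 UMIs in any cell, as the gate allows. Another 6 myeloid genes that the gates did not use summed to 122 and 209 CPM, NK genes to 8.15 and 83.7 CPM, and mast cell and basophil genes were at 0 in both. Free RNA, read from barcodes with 10 to 50 UMIs, was estimated at 1.87% of the UMIs of lymphoid gates in the control library and 1.71% after anti-PD-1. The part of these in the results was not tested beyond the stricter gates and the subtraction of free RNA, both among the alternatives described under the processing.

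**Figure D1:**
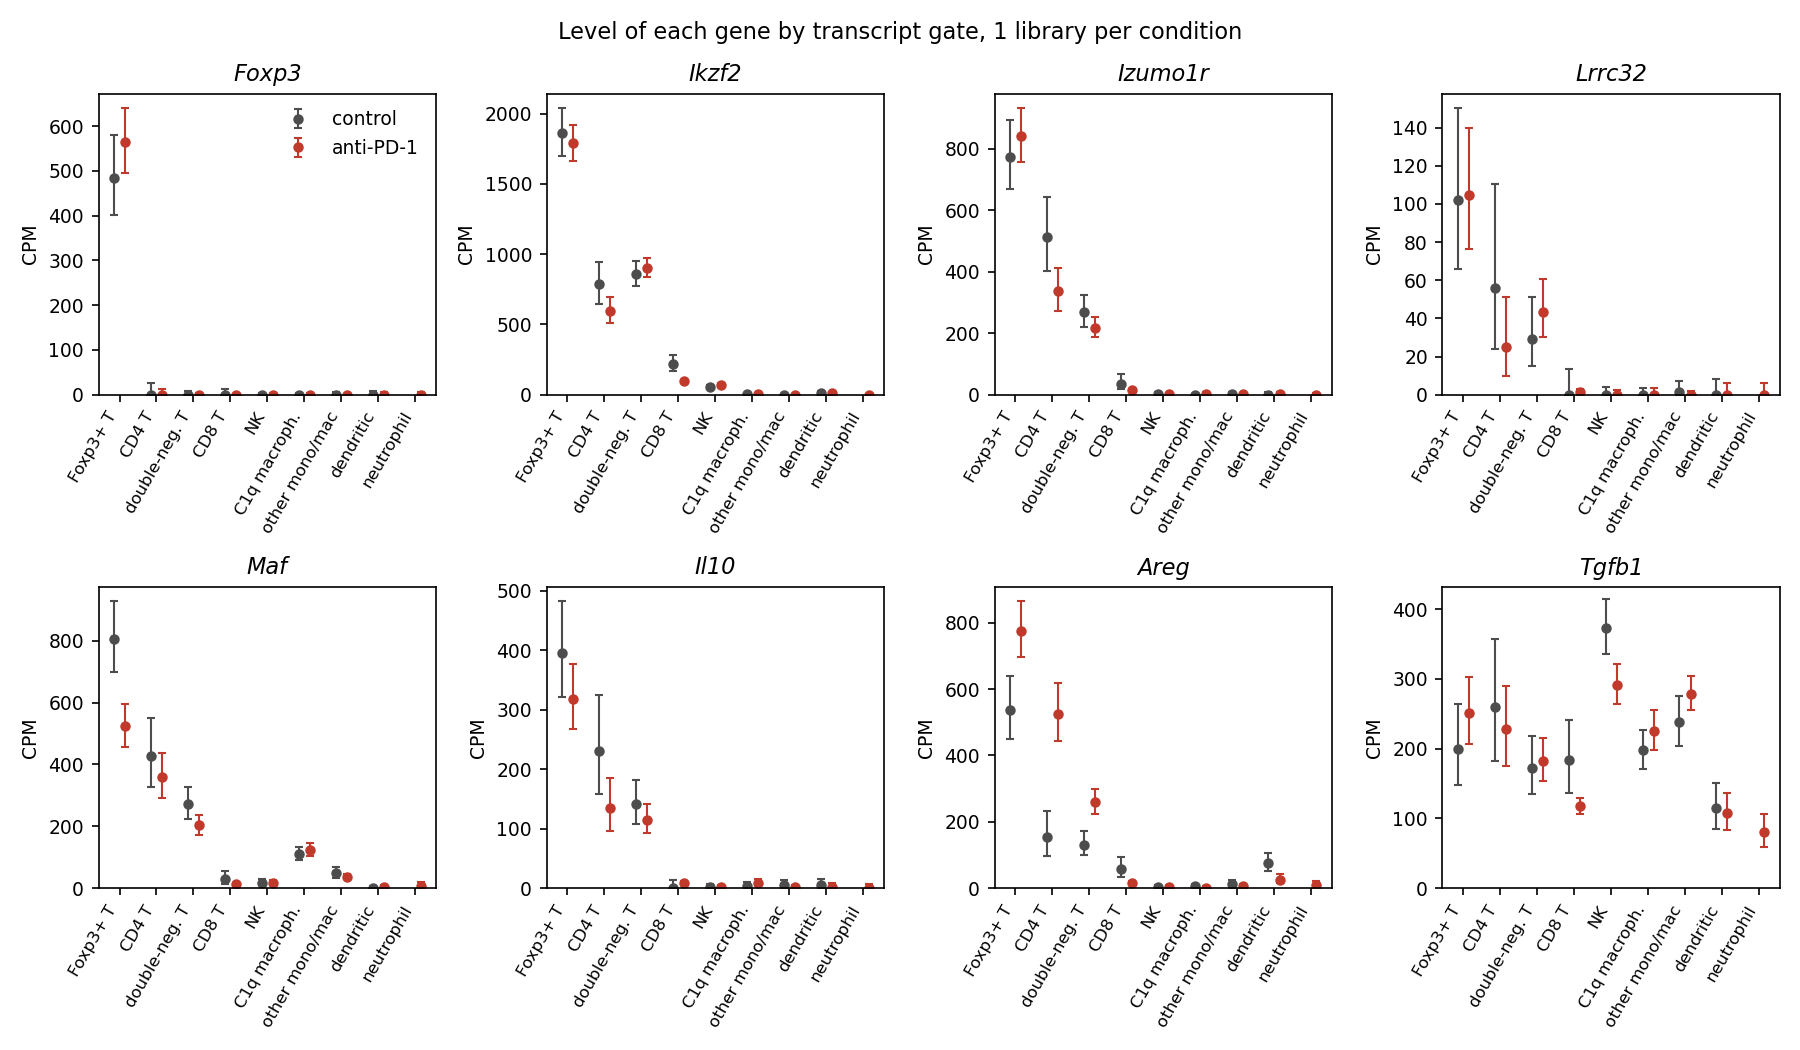
CPM (linear axes, each with its own scale) of the 8 genes in 9 transcript gates, in the control library (grey) and the anti-PD-1 library (red); bars are exact Poisson 95% intervals, and the control neutrophil gate, with 6 cells, is left out. Apart from Tgfb1, each gene stands highest in the Foxp3-positive T gate of both libraries.

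Ikzf2 (chr1:69531214-69687245, minus strand) was, Foxp3 aside, the most widely detected gene of the set within the gate. At least 1 Ikzf2 UMI was present in 96.2% of control and 98.1% of anti-PD-1 Foxp3-positive cells. Its level was 1863 CPM (1696 to 2042) in the control library and 1790 CPM (1666 to 1922) after anti-PD-1, so the libraries' intervals overlapped. The order below the gate was the same in both: double-negative T cells (860 and 900 CPM), CD4 T cells (785 and 597), CD8 T cells (220 and 96.0) and NK cells (53.3 and 66.9), with myeloid cells at 4.89 and 3.39. In the control the double-negative and CD4 intervals overlapped, and in the anti-PD-1 library they did not. Ikzf2 is the member with the smallest step from Foxp3-positive to double-negative T cells in both libraries after Tgfb1, at a log2 ratio of 1.11 (0.91 to 1.32) and 0.99 (0.84 to 1.14).

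Maf (chr8:115682942-115707794, minus strand) was the gene of the set that stood lower in the anti-PD-1 gate by more than its counting error. It was detected in 83.5% of control Foxp3-positive cells and 69.6% of anti-PD-1 ones, and in 62.0% and 46.2% once every cell was thinned to 1000 UMIs. The level was 807 CPM (699 to 928) in the control library and 523 CPM (457 to 596) after anti-PD-1. Outside the gate, Maf stood at 427 and 359 CPM in CD4 T cells, 273 and 203 in double-negative T cells and 28.8 and 12.9 in CD8 T cells. Maf was also the member of the set, beside Tgfb1, with clear signal in macrophages. C1q macrophages, defined by their complement C1q transcripts, held 111 CPM in the control library and 125 CPM after anti-PD-1, above the other monocytes and macrophages (48.6 and 36.7 CPM) and above NK cells (17.8 and 17.1 CPM). Myeloid cells held 25.2% and 24.3% of all Maf UMIs in kept cells.

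Izumo1r (chr9:14885814-14903949, minus strand) separated the T-cell gates in steps. In the control it stood at 774 CPM (669 to 893) in Foxp3-positive cells, 511 in CD4, 268 in double-negative and 36.0 in CD8 T cells. In the anti-PD-1 library the same gates stood at 842 (757 to 933), 338, 218 and 14.3 CPM. No NK or myeloid gate with at least 50 cells passed 3 CPM, and in C1q macrophages the gene was at 0 UMIs in the control library and 3 after anti-PD-1. Folr2, a related folate receptor that marks resident macrophages, showed the reverse distribution: it stood at 25.2 and 13.6 CPM in C1q macrophages and at 0 in the T-cell and NK gates.

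Lrrc32 (chr7:98489283-98502181, plus strand) was sparse, with 25 UMIs in the control gate and 45 in the anti-PD-1 one, and was found in 22.8% and 23.4% of those cells. The level was 102 CPM (66.0 to 150) and 105 CPM (76.3 to 140). CD4 T cells held 56.1 and 24.9 CPM and double-negative T cells 29.2 and 43.4 CPM, with overlapping intervals between those gates. CD8 T cells held 0 UMIs in the control library and 4 after anti-PD-1, and NK cells held none in either. Nrros, which tethers latent TGF-β on myeloid cells as GARP does on regulatory T cells, stood at 151 and 141 CPM over all myeloid cells and at 48.9 and 23.3 CPM in Foxp3-positive T cells. Itgb8, a subunit of the integrin that releases active TGF-β, stood at 106 and 76.7 CPM in Foxp3-positive cells and at no more than 35.0 CPM in any other gate of both libraries.

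Il10 (chr1:131019845-131024974, plus strand) was detected in 41.8% of control (30.8 to 53.4) and 36.7% of anti-PD-1 Foxp3-positive cells (29.2 to 44.7), at 395 CPM (321 to 482) and 319 CPM (268 to 377). CD4 T cells held 231 and 135 CPM and double-negative T cells 141 and 115 CPM. Few cells carried much of it outside the gate: 3 anti-PD-1 CD4 T cells held 78.9% of that gate's 38 UMIs. NK cells held 2 UMIs in each library and myeloid cells 10 and 14, or 4.44 and 3.39 CPM. Those myeloid cells with an Il10 UMI were 2.38% and 1.67% of the myeloid gate, against 0.69% and 0.41% of NK cells, with median depths of 4782 and 4054 UMIs in the myeloid and 2862 and 2270 in the NK gates. Thinned to 1000 UMIs a cell, the myeloid shares were 0% and 0.83% and the NK shares 0% and 0.20%.

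By source, the Foxp3-positive gate held 44.7% of the Il10 UMIs of kept control cells (38.0 to 51.6) and 38.4% of those of kept anti-PD-1 cells (33.3 to 43.6), while holding 5.20% and 3.56% of all UMIs. Foxp3-zero CD4 and double-negative T cells together held another 41.9% and 35.9%. Macrophages, textbook producers of IL-10, were a minor source here: all myeloid cells held 4.61% and 3.92% of Il10 UMIs with 47.7% and 34.2% of all UMIs. CD8 T cells held none of 217 UMIs in the control library and 31 of 357, or 8.68%, after anti-PD-1. Those 31 UMIs came from 12 of 1038 CD8 T cells, with 67.7% of them in 3 cells. The control CD8 gate had 71 cells, and its 0 UMIs allow 3 UMIs, or 10.8 CPM, above the 8.86 CPM of the anti-PD-1 gate, so no difference was detectable.

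Areg (chr5:91139599-91148432, plus strand) was found in fewer Foxp3-positive cells than Il10 in both libraries, 26.6% in the control library (17.3 to 37.7) and 33.5% after anti-PD-1 (26.2 to 41.5), but was concentrated in them. The highest cell held 26 UMIs in the control library and 32 after anti-PD-1, and 3 cells held 51.5% and 22.5% of the gate's Areg UMIs. The gate's level was 538 CPM (450 to 638) in the control library and 777 CPM (696 to 865) after anti-PD-1. CD4 T cells stood at 154 and 526 CPM, double-negative T cells at 132 and 259, and CD8 T cells at 57.7 and 16.0. The control CD8 value rests on 16 UMIs, all in 2 of 71 cells. NK cells held 4 and 5 UMIs.

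Among myeloid gates dendritic cells held the most Areg UMIs, at 76.2 CPM in the control library (34 UMIs in 7 of 67 cells, 73.5% of them in 3 cells) and 25.6 CPM after anti-PD-1 (16 UMIs in 5 of 126 cells). The other myeloid UMIs were 10 and 13 in other monocytes and macrophages, 7 and 2 in C1q macrophages and 0 and 6 in neutrophils. The Foxp3-positive gate held 43.0% of all Areg UMIs in kept control cells (37.4 to 48.7) and 37.2% in kept anti-PD-1 cells (34.1 to 40.5). Foxp3-zero CD4 and double-negative T cells held 24.8% and 39.1%, and myeloid cells 16.6% and 4.12%. Mast cells, basophils and group 2 innate lymphoid cells, other known sources of amphiregulin, could not be assessed: no barcode passed the mast cell and basophil gate, and 4 control and 1 anti-PD-1 barcodes met the innate lymphoid criteria.

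Tgfb1 (chr7:25687002-25705077, plus strand) did not follow the other genes. In Foxp3-positive cells it stood at 200 CPM (148 to 264) in the control library and 251 CPM (206 to 303) after anti-PD-1. In the control NK cells were highest at 373 CPM (336 to 414), ahead of CD4 T cells (259), the other monocytes and macrophages (238), the Foxp3-positive gate, C1q macrophages (198), CD8 T cells (184), double-negative T cells (173) and dendritic cells (114). The interval of the NK gate stood clear of every one of these except that of CD4 T cells, and from CD4 down to double-negative T cells each neighbour's interval overlapped the next. In the anti-PD-1 library NK cells (292 CPM) and the other monocytes and macrophages (279) stood at the top with overlapping intervals. The intervals of the Foxp3-positive gate (206 to 303) and of CD4 T cells (228 CPM, 175 to 291) overlapped both of these. CD8 T cells stood at 118 and neutrophils at 80.4. In terms of source, the Foxp3-positive gate held 4.42% and 4.81% of Tgfb1 UMIs, close to its 5.20% and 3.56% of all UMIs. Myeloid cells held 39.4% and 38.8%, NK cells 32.2% and 18.3%, and CD8 T cells 4.60% and 18.4%.

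**Figure D2:**
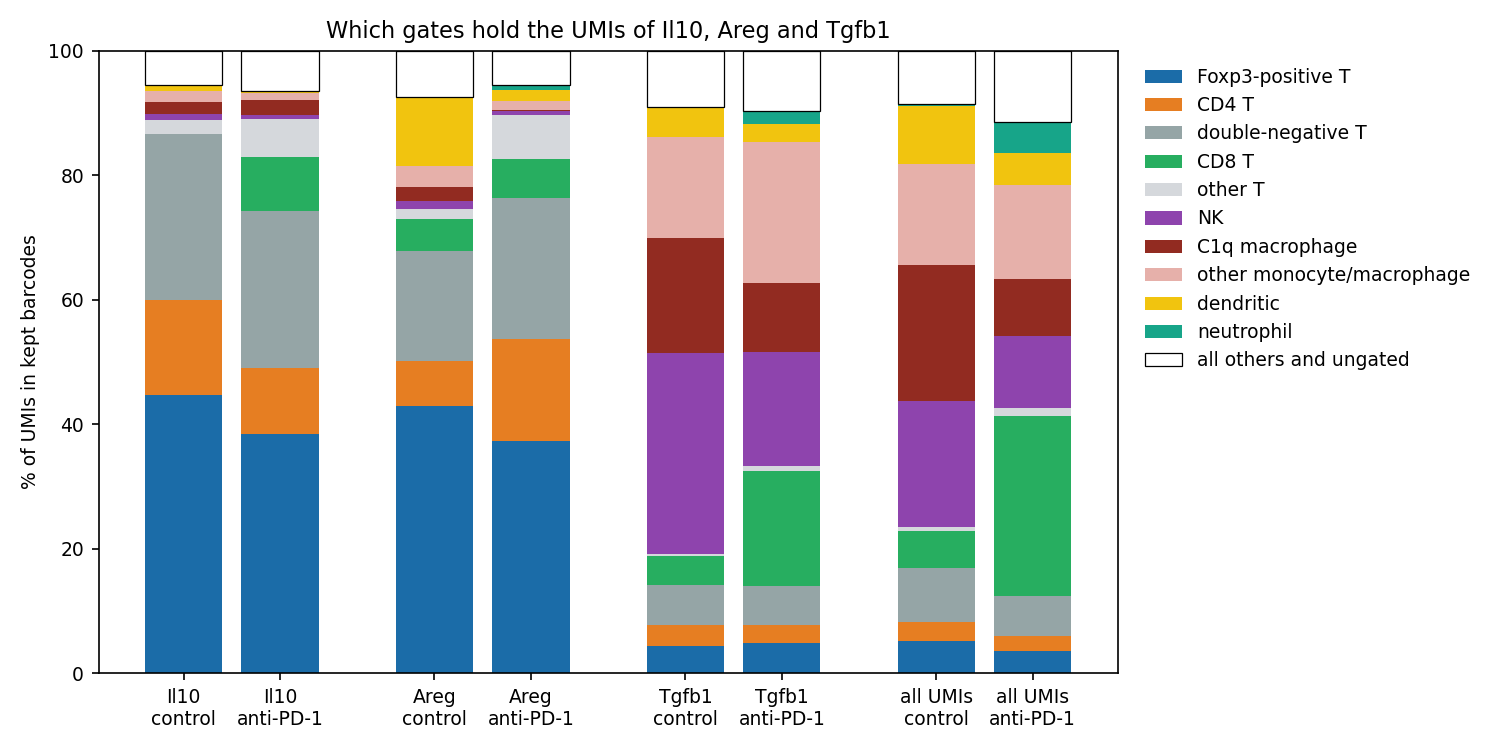
Share (%) of the UMIs of Il10, Areg and Tgfb1 in kept barcodes that lay in each gate, per library, with the share of all UMIs as the last pair of bars. The Foxp3-positive gate (blue) holds 44.7% and 38.4% of Il10 and 43.0% and 37.2% of Areg but 4.42% and 4.81% of Tgfb1, while it holds 5.20% and 3.56% of all UMIs.

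Between gates, the step from Foxp3-positive to CD4 T cells was smaller than the step to CD8, NK or myeloid cells for the 6 genes other than Foxp3, which set the gates, and Tgfb1. Leaving Foxp3 aside, 2 of 7 genes were at least 2-fold higher than in CD4 T cells in the control (Ikzf2, log2 ratio 1.25, and Areg, 1.80), where 7.61% of 1551 genes were. After anti-PD-1, 4 of 7 were (Ikzf2 1.58, Il10 1.24, Lrrc32 2.07 and Izumo1r 1.32), where 7.37% of 2687 genes were. Over double-negative T cells, 6 of 7 were in the control, with a background of 8.30%, and 5 of 7 in the anti-PD-1 library, with a background of 5.61%. Over CD8 T cells 6 of 7 were in the control library and 7 of 7 after anti-PD-1, beside the 17.6% and 7.58% given above. Over NK and over myeloid cells, 6 of 7 were in both libraries, Tgfb1 being the exception. The backgrounds there were 13.7% and 12.1% over NK cells and 9.96% and 11.4% over myeloid cells. These genes were chosen by name as regulatory T-cell genes, so the counts describe how they separate the gates and are not independent support for the gates.

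The step of Areg between Foxp3-positive and CD4 T cells was a log2 ratio of 1.80 (1.15 to 2.53) in the control library and 0.56 (0.28 to 0.85) after anti-PD-1, and that of Lrrc32 0.86 (-0.33 to 2.22) and 2.07 (0.91 to 3.47). The control CD4 value of Areg rested on 22 UMIs, of which 86.4% lay in 3 cells. Over the alternatives the Areg step ranged from 0.59 to 3.43 in the control library and from 0.17 to 2.28 after anti-PD-1. The order of the libraries turned with the gate set by Il2ra and Ctla4 (1.65 and 2.28) and with Foxp3-zero cells of at least 3 Il2ra and Ctla4 UMIs joined to the gate (0.59 and 1.94). Over CD8 T cells, Il10 was at least 5.19 log2 units higher in the control, with the 0 UMIs of the CD8 gate set at 3 (the interval's lower limit is 4.87), and 5.17 units higher (4.60 to 5.78) in the anti-PD-1 library. Maf was 4.81 and 5.35 units higher, and Izumo1r 4.43 and 5.88.

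Between the libraries, none of the 8 genes differed by 2-fold within Foxp3-positive T cells. Over all 2510 genes with at least 20 UMIs in the higher library, 4.94% were at least 2-fold higher in the anti-PD-1 library and 1.43% at least 2-fold lower. That minimum is a lower CPM in the anti-PD-1 gate, which held 430055 UMIs, than in the control gate, with 245347. More genes could therefore enter as higher in the anti-PD-1 library. Maf was 0.65 times its control level (log2 ratio -0.63, -0.91 to -0.34), and Areg 1.44 times (0.53, 0.23 to 0.83). The median log2 ratio of all genes tested was 0.12, a value outside both intervals. Ikzf2 (-0.06), Izumo1r (0.12), Lrrc32 (0.04), Tgfb1 (0.33) and Il10 (-0.31, -0.70 to 0.08) had intervals that included 0, as had Foxp3 itself (0.22). The spread between animals cannot be judged from 1 library each.

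The Areg difference depended on how cells were chosen. It was 0.12 with a minimum of 2000 UMIs, -0.050 with at least 2 Foxp3 UMIs per cell and 0.16 with at most 1 myeloid UMI. It was 0.85 when the gate was set by Il2ra and Ctla4 in place of Foxp3. The Maf ratio stayed between -0.69 and -0.46 in all of the alternatives run. Tgfb1 came to 1.06 when cells were thinned to 1000 UMIs, and Ikzf2 ranged from -0.26 to 0.26, Izumo1r from -0.28 to 0.39 and Il10 from -0.47 to 0.088.

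**Figure D3:**
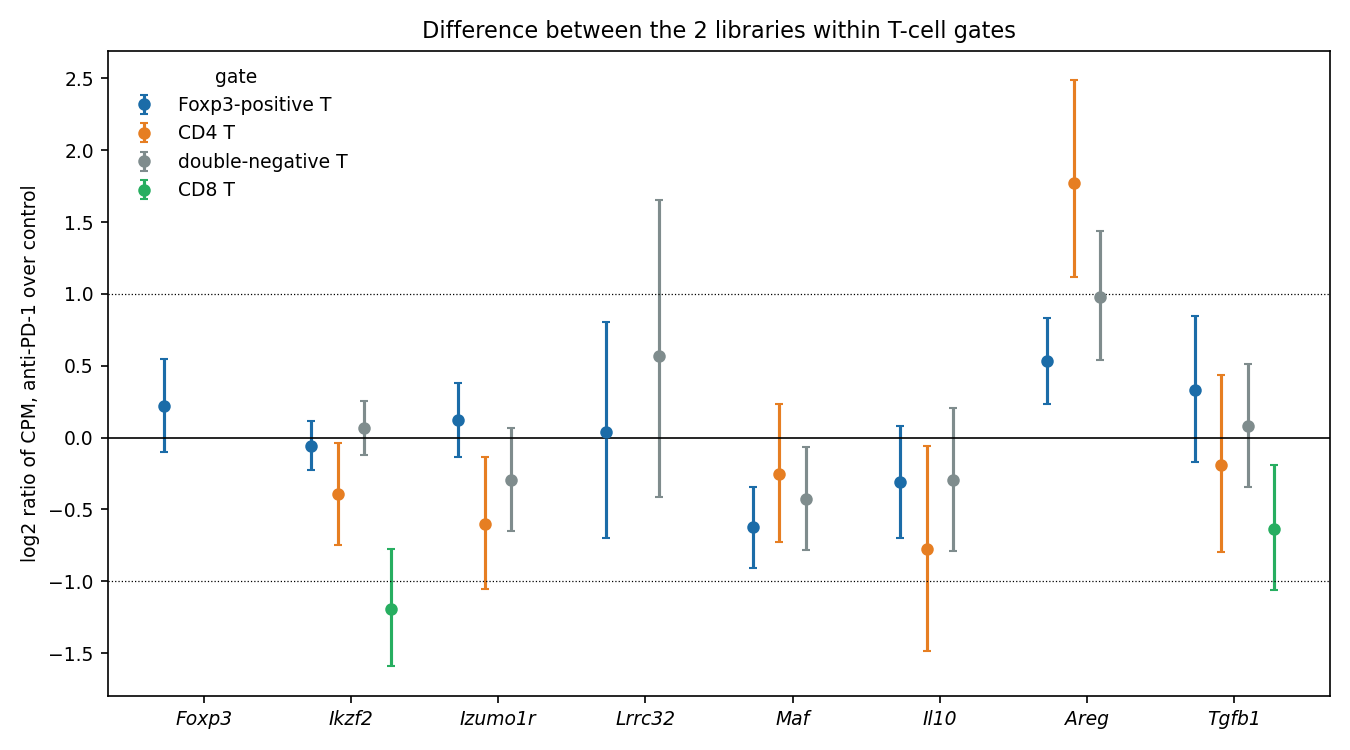
log2 ratio of CPM, anti-PD-1 over control, of each gene in 4 T-cell gates, shown where the gene had at least 20 UMIs in the higher library and UMIs in both; bars are 95% conditional binomial intervals and dotted lines mark a 2-fold difference. Maf lies below 0 in the Foxp3-positive, CD4 and double-negative gates, and Areg above 0 in the same gates. The Maf interval of the CD4 gate includes 0 (-0.25, -0.72 to 0.23).

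In the other T-cell gates, Areg in CD4 T cells was 3.41 times its control level (1.77, 1.12 to 2.49), the gene of the set that passed 2-fold there, where 7.82% of 1649 genes were at least 2-fold higher. Of the 22 control UMIs behind it, 86.4% lay in 3 cells. The ratio ranged from -0.48 to 2.98 over the alternatives, at 0.21 with the gate set by Il2ra and Ctla4 and turned to -0.48 with that joined gate, which was chosen after seeing the data. The share of CD4 T cells with an Areg UMI was 14.0% in the control library and 22.1% after anti-PD-1. In double-negative T cells the ratio was 0.98 (0.54 to 1.44), just short of 2-fold, beside a background of 5.29%. In CD8 T cells Ikzf2 was 0.44 times its control level (-1.20, -1.59 to -0.78), where 0.696% of 5030 genes were at least 2-fold lower. Thinned to 1000 UMIs a cell, that ratio was -0.66. In NK cells Tgfb1 was lower by less than 2-fold (-0.36, -0.56 to -0.15). In dendritic cells Areg was at least 2-fold lower (-1.57, -2.53 to -0.68), where 2.78% of 3377 genes were, and the 3 cells named above held most of the control UMIs.

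Over all T cells pooled, 6 of the 8 genes were at least 2-fold lower in the anti-PD-1 library, where 2.06% of 6887 genes were: Foxp3 (-1.11), Ikzf2 (-1.16), Il10 (-1.49), Lrrc32 (-1.25), Izumo1r (-1.38) and Maf (-1.64). The CD8 gate made up 71 of 344 T cells in the control library and 1038 of 1657 after anti-PD-1. Within the Foxp3-positive gate the same 6 genes stood between -0.63 and 0.22. T cells with a Foxp3 UMI were 24.7% in the control library (129 UMIs in 85 cells) and 11.0% after anti-PD-1 (278 UMIs in 182 cells), or 11.9% and 6.04% once thinned to 1000 UMIs. For Izumo1r the shares were 39.8% (407 UMIs in 137 cells) and 15.2% (727 UMIs in 252 cells), or 26.2% and 10.2% thinned.

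The Foxp3-zero CD4 and double-negative gates were then split by the sum of Il2ra and Ctla4 UMIs, which encode the high-affinity IL-2 receptor chain and the inhibitory receptor CTLA-4. The split was chosen after the values were seen. It placed 85, 38 and 61 control cells at 0, 1 or 2, and at least 3 UMIs, and 180, 115 and 132 anti-PD-1 cells. Il10 stood at 39.9, 155 and 338 CPM over these classes in the control library and at 16.9, 74.1 and 281 CPM after anti-PD-1. This rising order came from double-negative T cells in the control library (13.6, 107 and 434 CPM), where CD4 T cells showed none (230, 284 and 211 CPM, on 7, 9 and 17 UMIs). After anti-PD-1 the top class stood highest in both gates, at 265 CPM in CD4 and 291 CPM in double-negative T cells. Over both gates Izumo1r stood at 79.9, 258 and 713 CPM and at 60.2, 189 and 525 CPM. Cells without a Foxp3 UMI but with at least 3 Il2ra and Ctla4 UMIs had Il10 intervals that overlapped those of the Foxp3-positive gate in both libraries. Their Izumo1r overlapped the gate's in the control library and stood below it after anti-PD-1. Their Ikzf2 stood below the gate's in both libraries, with intervals apart (1447 against 1863 CPM in the control, 1243 against 1790 CPM after anti-PD-1). Their Maf stood below the gate's in the control library (547 against 807 CPM, intervals apart) and overlapped it after anti-PD-1 (431 against 523 CPM).

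Over both gates Areg stood at 0, 164 and 306 CPM in the control library and 45.8, 148 and 818 CPM after anti-PD-1. In the control library double-negative T cells had this order (0, 11.8 and 500 CPM), while CD4 T cells stood at 0, 567 and 49.6 CPM, on 0, 18 and 4 UMIs. Control CD4 T cells were also highest in the middle class for Izumo1r (662 CPM, against 558 in the top class) and Maf (820 against 347 CPM). After anti-PD-1 the Areg values were 221, 198 and 886 CPM in CD4 and 14.2, 128 and 777 CPM in double-negative T cells. The interval of the top anti-PD-1 class overlapped that of the Foxp3-positive gate (777 CPM), and the top control class stood below its gate (306 against 538 CPM). Lrrc32 stood at 80.4 and 105 CPM in the top classes. Maf stood at 67.9, 465 and 547 CPM in the control library and 81.9, 249 and 431 CPM after anti-PD-1. Tgfb1 varied little, at 152, 250 and 220 CPM and at 157, 202 and 233 CPM. Over both gates together, median depth differed little between the classes, from 2695 to 2812 UMIs in the control library and from 1972 to 2283 after anti-PD-1. Within single gates it differed more. In CD4 T cells it was 2810, 3216 and 3225 UMIs in the control library and 1871, 2407 and 2799 after anti-PD-1. In double-negative T cells it was 2671, 2175 and 2729 UMIs and 1977, 2125 and 2124.

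When the top class was joined to the Foxp3-positive gate, it held 140 control and 290 anti-PD-1 cells. That joined set carried 73.7% and 66.1% of Il10 UMIs and 61.6% and 69.3% of Areg UMIs, against 8.12% and 8.46% of Tgfb1 UMIs. Its Areg ratio between libraries was 0.86. The CD4 T cells left outside it had an Areg ratio of -0.48, the reverse of the 1.77 given above.

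**Figure D4:**
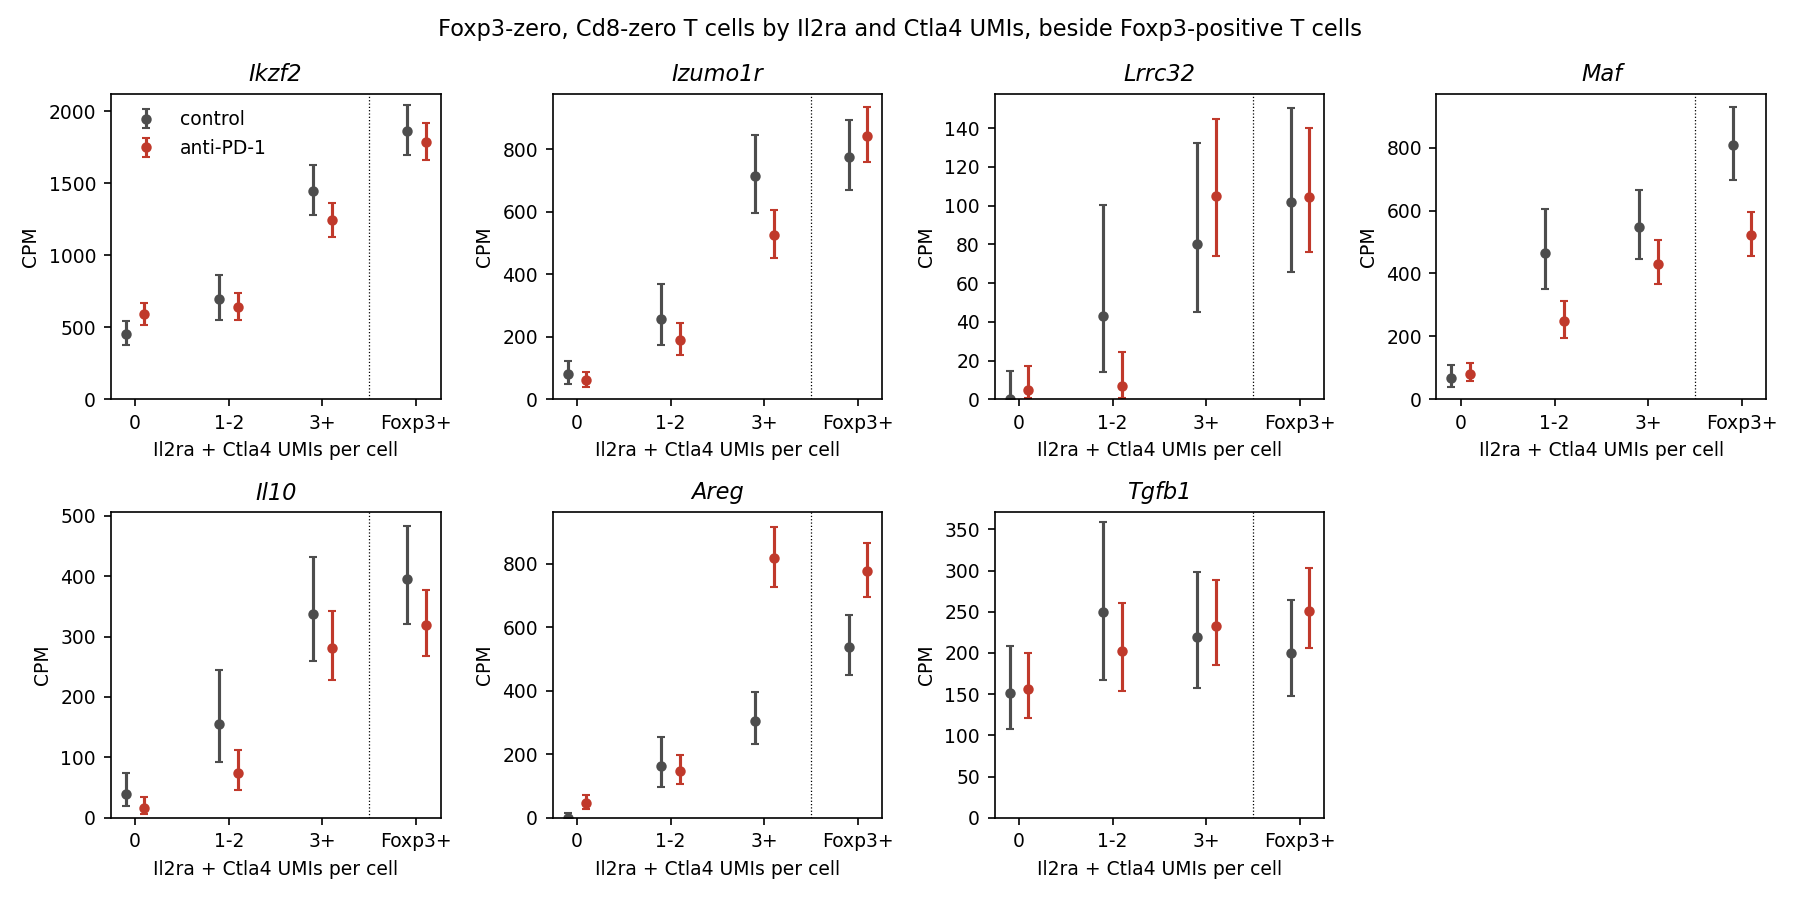
CPM (linear axes) of 7 genes in T cells with no Foxp3 and no Cd8 UMI, by their Il2ra and Ctla4 UMIs (0, 1 or 2, 3 or more), beside the Foxp3-positive gate to the right of the dotted line; bars are exact Poisson 95% intervals, grey is control and red anti-PD-1. The intervals at 0 and at 3 or more UMIs are apart for 6 genes in both libraries and overlap for Tgfb1.

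Ikzf2 kept a signal in the class with no Il2ra or Ctla4, at 455 CPM in the control library and 590 CPM after anti-PD-1, against 1447 and 1243 CPM in the top class. Within double-negative T cells alone it was 477 and 666 CPM in that class, while Areg stood at 0 and 14.2 CPM and Il10 at 13.6 and 17.1 CPM. The double-negative gate as a whole also carried NK receptor genes (Ncr1, Klrb1c and Klre1), at 492 CPM in the control library and 407 CPM after anti-PD-1, against 8.15 and 83.7 CPM in Foxp3-positive cells. Their part in the Ikzf2 signal was not tested in this comparison.

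Within the Foxp3-positive gate, Il10 and Maf were compared cell by cell, since c-MAF promotes Il10 transcription. Cells with an Il10 UMI had Maf at 843 CPM (673 to 1044) in the control, against 782 (645 to 940) in cells without. In the anti-PD-1 library the values were 535 (427 to 661) and 516 (434 to 609). The intervals overlapped in both libraries, so no difference was detectable at this depth. Areg stood at 572 and 515 CPM in control cells with and without Il10 and at 994 (845 to 1162) and 649 (557 to 752) in anti-PD-1 cells. Split by Areg instead, Il10 stood at 616 CPM (434 to 849) in control cells with Areg and 324 (247 to 417) in those without, and at 279 (204 to 373) and 343 (276 to 421) in anti-PD-1 cells. The intervals were thus apart in 1 library in each split, and not in the same one. Thinned to 1000 UMIs a cell, that anti-PD-1 Areg pair overlapped (1238, 925 to 1624, against 810, 655 to 992). The control Il10 pair stayed apart (1000, 560 to 1649, against 344, 215 to 520). Its higher value rested on 15 UMIs in a set of 15 cells, with 80% of them in 3 cells. Before thinning, 3 cells held 42.4% of the Areg UMIs of anti-PD-1 cells with Il10. In control cells with Areg, 3 cells held 56.8% of the Il10 UMIs.

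Cells with an Areg UMI had less Izumo1r than cells without in both libraries, at 616 CPM (434 to 849) against 826 (700 to 967) in 21 and 58 control cells and at 552 (445 to 678) against 1021 (903 to 1150) in 53 and 105 anti-PD-1 cells. The intervals were apart in the anti-PD-1 library and overlapped in the control. Control cells with at least 2 Foxp3 UMIs had Areg at 857 CPM against 280 CPM in those with 1, with 3 cells holding 70.2% and 76.3% of these UMIs, and in the anti-PD-1 library the pair was 828 and 752 CPM with overlapping intervals. Cells of 1 library are not replicates, and these values describe the cells measured.

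Genes of the pathways around the set were read from lists fixed by role, again within Foxp3-positive cells and between the libraries. Of 30 further regulatory T-cell genes, 21 had enough UMIs, 1 was at least 2-fold higher in the anti-PD-1 library and none lower, beside the 4.94% and 1.43% of all genes, with a median log2 ratio of -0.12 beside 0.12 over all genes tested. The 1 gene was Entpd1, the ectonucleotidase CD39, at 28.5 CPM in the control library (7 UMIs) and 83.7 CPM after anti-PD-1 (36 UMIs; log2 ratio 1.55, 0.36 to 2.97). Nt5e, which encodes CD73, the next enzyme on the path to adenosine, stood at 97.8 and 72.1 CPM (-0.44, -1.26 to 0.39). Tnfrsf1b, the TNF receptor TNFR2, stood at 273 and 177 CPM (-0.63, -1.12 to -0.13), and Itgae, the αE integrin CD103, at 134 and 86.0 CPM (-0.64, -1.36 to 0.08).

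Of 23 genes of the TGF-β pathway 5 had enough UMIs, and none differed by 2-fold, beside the same 4.94% and 1.43%, with a median of -0.32. With so few genes a count of 0 is near that background, here and for the next list. Smad7, an inhibitor induced by the pathway, stood at 183 and 146 CPM and Skil, a repressor of SMAD-driven transcription, at 65.2 and 90.7 CPM, with intervals that included 0 difference. Of 16 genes around IL-10, 6 had enough UMIs and none differed by 2-fold. Among them Stat3, which carries the IL-10 receptor signal, stood at 151 and 207 CPM and the receptor chain Il10rb at 118 and 97.7 CPM. The AP-1 family gene Batf stood at 130 and 170 CPM and Bhlhe40, a repressor of Il10, at 81.5 and 67.4 CPM. Of 15 genes around amphiregulin 1 had enough UMIs, the sheddase gene Adam10 at 32.6 and 46.5 CPM. Egfr, the receptor of amphiregulin, had no UMI in any gate of these CD45+ cells.

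Of 18 FOXP3 partners and regulators 10 had enough UMIs, and 1 was at least 2-fold higher in the anti-PD-1 library, beside the background of 4.94%, with a median of 0.27. This was Cbfb, the partner of RUNX factors, at 40.8 CPM (10 UMIs) and 93.0 CPM (40 UMIs; 1.19, 0.17 to 2.36). Satb1, a chromatin organiser, stood at 106 and 179 CPM (0.76, 0.10 to 1.46) and Rel, the NF-κB subunit c-Rel, at 93.7 and 55.8 CPM (-0.75, -1.64 to 0.14). The relatives of Helios stood at levels that did not differ beyond counting error: Ikzf1 at 77.4 and 95.3 CPM, Ikzf3 at 89.7 and 126 CPM and Ikzf4, the Eos gene, at 77.4 and 83.7 CPM. In CD8 T cells Ikzf4 stood at 3.60 and 4.57 CPM.

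Genes whose pattern over gates was most like each of the 8 were ranked by Pearson r of log2(CPM + 10) over 14 points, 7 gates in each of 2 libraries, among 9316 genes. These points share libraries and gate rules, and r is a description. Areg was most like Tnfrsf4 (r = 0.961), Il2ra (0.951) and Itgb8 (0.95). Il10 and Lrrc32 were each the other's closest gene (0.987). Ikzf2 was closest to Tesc (0.984), Ctla4 (0.984) and Sytl1 (0.978), and Izumo1r to Sv2c (0.992), Oxsr1 (0.988) and Neb (0.984). Maf was closest to Tspan32 (0.943), Fam46a (0.943) and Wls (0.938). Foxp3 was closest to Cd4 (0.993), Ly6g (0.968) and Sema4b (0.923), where the gates used set Cd4 and Foxp3 to 0 in the same T-cell classes. By rule the CD4 gate has Cd4 and no Foxp3, so the r with Cd4 describes only the gates without it. Tgfb1 had the loosest matches, Npc1 (0.871), Ghdc (0.815) and Sos2 (0.812).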

How the data were processed

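Each deposited matrix gives raw UMI counts for 737280 barcodes. The reads were processed by the authors with Cell Ranger 2.1 on mm10, per the submitters' processing notes. Barcodes with at least 1000 UMIs and at most 10% mitochondrial UMIs were kept, removing 11 control and 24 anti-PD-1 barcodes for the mitochondrial share. No doublet caller was run, so cells with transcripts of 2 types can remain, and T cells with Foxp3 and Cd8 UMIs were left outside the Foxp3-positive gate.

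Counts were summed per gate and divided by the gate total (CPM) with Python 3.11.15, numpy 2.4.6, scipy 1.17.1 and pandas 2.3.3. Levels carry exact Poisson intervals, shares Clopper-Pearson intervals and ratios conditional binomial intervals, all at 95%. Molecules counted in 1 library are not biological replicates, and depth limits rare transcripts: 3 UMIs, the limit that a count of 0 allows, is 12.2 CPM in the control and 6.98 CPM in the anti-PD-1 Foxp3-positive gate. A gene under 3 UMIs on the lower side was set to 3 there. A gene counted as different at 2-fold or more with at least 20 UMIs on the higher side. The scripts were tested on simulated data.

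Named genes were the 8 genes, up to 4 genes per list with the largest absolute log2 ratio among those with at least 20 UMIs, genes named for a role beside them, and the 3 most alike genes by pattern. Genes and lists were chosen with earlier results of these data known. Alternatives covered the UMI minimum, mitochondrial limit, gate rules, thinning, free RNA, cell weights and cycling cells. Gene positions are from the GRCm38 annotation and promoter sequences from RefSeq (GRCm38.p6).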

Additional observations from a re-analysis of the deposited data

Results flagged for a closer look

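Ikzf2 transcripts were also present in barcodes left out of every comparison because they held more than 50 but fewer than 1000 UMIs. In the anti-PD-1 library 1475 such barcodes carried 243 Ikzf2 UMIs, or 434 CPM (381 to 492), above the 217 CPM (144 to 314; 28 UMIs) of 359 control barcodes. Foxp3 stood at 37.5 CPM (21 UMIs) in those anti-PD-1 barcodes and at 0 UMIs in the control ones, which allow 3 UMIs, or 23.3 CPM. What these barcodes hold was not tested.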

How the results depend on the processing

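No paired analysis was possible because each group has 1 library. Under the 13 alternatives, 131 of the values that answer a comparison moved by less than the limit set for them and 39 by more. That limit was counting error for ratios and shares, and a fixed fold for counts of genes. A turned direction was recorded only for ratios of at least 2-fold, which none of these ratios reached, so none could be recorded. The sign did turn in some alternatives for Ikzf2, Il10, Areg, Izumo1r and Lrrc32 (the last from -0.060 to 0.70). With at least 2 Foxp3 UMIs per cell (33 and 52 cells), 56 genes were at least 2-fold higher and 23 lower in the anti-PD-1 gate, the log2 ratios were 0.14 for Ikzf2, 0.088 for Il10 and -0.050 for Areg, and the gate's share of UMIs (control, anti-PD-1) was 21.2% and 17.6% for Il10, 30.6% and 13.0% for Areg and 2.35% and 1.60% for Tgfb1. With at most 1 myeloid UMI, 20 genes were lower, the Areg ratio was 0.16 and the shares were 32.3% and 23.5% (Il10), 30.9% and 19.7% (Areg) and 2.62% and 2.81% (Tgfb1). With a minimum of 2000 UMIs (68 and 96 cells), the ratios were -0.26 (Ikzf2) and 0.12 (Areg), and the anti-PD-1 Areg share was 31.3%. With cells thinned to 1000 UMIs, 58 genes were higher and 11 lower, and the ratios were 0.26 (Ikzf2) and 1.06 (Tgfb1, with a UMI left in 11 of 79 control cells). With cells weighted alike they were 0.15 (Ikzf2) and 0.39 (Izumo1r), and with the gate set by Il2ra and Ctla4 0.85 (Areg) and -0.28 (Izumo1r). With a gene minimum of 50 UMIs, 18 genes were higher and 7 lower, against 124 and 36 as reported; fewer genes were then tested.

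In the joined gate, chosen after seeing the data, the Areg ratio was 0.86, the shares were 73.7% and 66.1% (Il10), 61.6% and 69.3% (Areg) and 8.12% and 8.46% (Tgfb1), and the Areg ratio of the remaining CD4 T cells was -0.48 (on 18 control UMIs). The cause of these differences was not tested, apart from the smaller sets of cells or genes that the alternatives define. Of single genes named in other gates and steps, 178 values moved by less than counting error, 25 by more and 1 reversed. Depth limits Lrrc32 and Tgfb1 most, with 25 and 49 UMIs in the control gate.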

Other observations

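Among double-negative T cells with no Il2ra or Ctla4 UMI, those with an Ikzf2 UMI (39 control and 69 anti-PD-1 cells) were set beside those without (35 and 82 cells). Klra7, a gene of the Ly49 receptor family of NK and unconventional T cells, stood at 592 against 238 CPM in the control and at 623 against 260 CPM in the anti-PD-1 library. Cd27, a costimulatory receptor of the TNF receptor family, stood at 304 against 136 CPM and at 347 against 199 CPM. Median depth was 2958 against 2196 UMIs and 2020 against 1941 UMIs. The genes were picked after their values were seen, and cells with a UMI of a gene are deeper on average, so these are values to look at again and not a comparison of conditions.

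Furin, the protease that processes the TGF-β precursor, stood at 40.8 CPM in control and 30.2 CPM in anti-PD-1 Foxp3-positive T cells. In CD4 T cells it stood at 98.1 and 274 CPM, in double-negative T cells at 39.0 and 146 CPM and in CD8 T cells at 39.7 and 90.9 CPM. Furin was named after its values were seen.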
